A study of Rattus norvegicus with 4 samples.

Results

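The genes described here are 10 markers and regulators of the Schwann cell (SC) lineage, taken by symbol from the 17949 genes of the RNA-seq count table: the transcription factors Sox10, Sox2, Tfap2a and Pax3, the adhesion molecules Ncam1, L1cam and Cdh2, the calcium-binding protein S100b, the intermediate filament Gfap and the lipid-binding protein Fabp7. They were compared between primary rat SCs from sciatic nerve that received a lentivirus for the Egr2 promoter antisense RNA (Lenti-AS, n = 2) and SCs that received the control virus (Lenti-GFP, n = 2). The control virus encodes AcGFP1 and the Egr2-AS vector encodes DsRed-Express2, and the effect of the reporter cannot be told apart from that of the Egr2-AS. Without a known strand setting, counts of Egr2 itself could hold reads of its antisense RNA, so its values are uncertain. All 4 samples were grown in medium with 10% serum, 4 μM forskolin, which raises cyclic AMP, and 5 ng/ml heregulin-β1. Heregulin-β1 is the ligand of the ErbB receptors of SCs. All 4 were infected at 2 virus units per cell, and RNA was taken 48 h after infection. No animal strain or age, and no separate animal for each sample, is given in the sources used here, so the tests measure the spread between these samples only.

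SCs arise from the neural crest through SC precursors and immature SCs, and then become myelinating or non-myelinating cells. SOX10 is needed at every one of these stages, TFAP2A and PAX3 belong to the crest and precursor stages, and SOX2 keeps SCs immature and is known to oppose myelination. After nerve injury, SCs lose their myelin program and again raise genes of the immature state, such as NCAM, L1, N-cadherin and GFAP, and the Egr2-AS has been studied in that setting because EGR2 drives myelination.

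Total counts lay between 74024323 and 96185890 per sample. Levels are given as CPM, the counts of a gene scaled to a common library size by TMM factors between 0.986 and 1.02. They were not set against each other between genes because no transcript lengths were used. Testing used edgeR's quasi-likelihood method on the 12446 genes that reached 10 counts in 2 or more samples, and a call required an adjusted p under 0.05 together with a 1.3-fold difference. The Lenti-AS samples differed from one another more than the Lenti-GFP samples did. More than 2-fold differences were seen in 5.49% of genes tested between the Lenti-AS samples and in 2.79% between the Lenti-GFP samples. The SC markers Erbb3, Ngfr and Cdh19 were all detected, each at 259 CPM or more in every sample.

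Of the 10 genes, 9 had enough counts to be tested, and Fabp7 did not. By edgeR none of the 9 was called, 0 higher and 0 lower, where 1.31% of all genes tested were called higher and 0.667% lower (1.98% together). By DESeq2 also 0 were called, where 3.92% of all genes were called higher and 1.12% lower (5.04% together). At an unadjusted p under 0.05 there were 2 of the 9, Ncam1 and S100b, beside 21.8% of all genes tested. Their median log2 fold change was 0.12, against 0.01 over all genes tested. All 9 had a fitted level above that of Lenti-GFP, as had 51.3% of all genes. In 6 of the 9, both Lenti-AS samples lay above both Lenti-GFP samples, which was so for 27.7% of all genes. In none of the 9 did both Lenti-AS samples lie below, which was so for 27.2% of all genes. In these bulk samples, fewer cells of a type and less RNA per cell cannot be told apart.

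**Figure D1:**
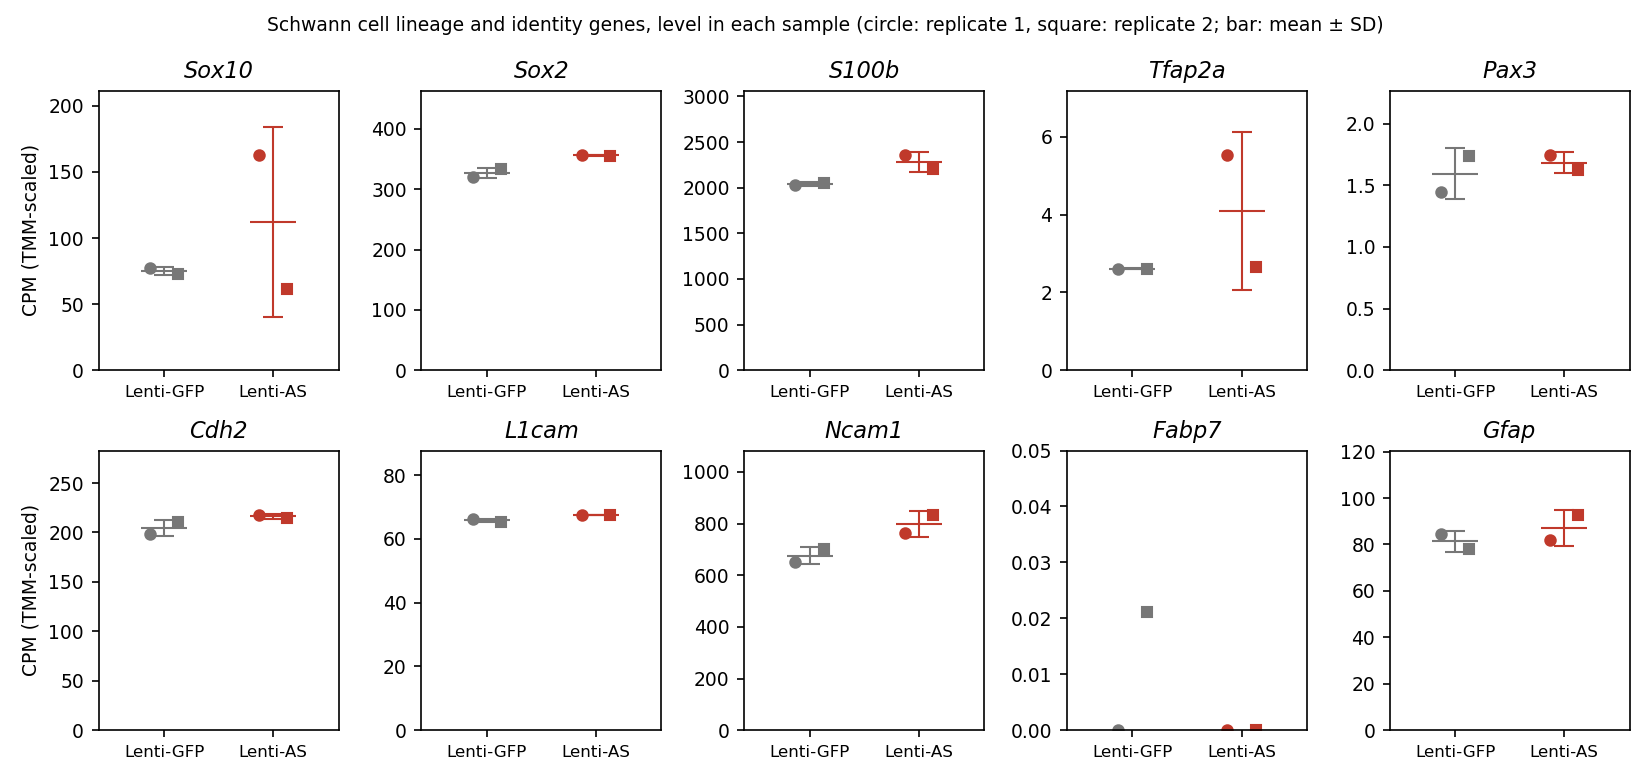
CPM (vertical axes, from 0, each panel on its own scale) of the 10 genes in the Lenti-GFP (grey) and Lenti-AS (red) samples, with replicate 1 as a circle, replicate 2 as a square, and bars for the mean ± SD (n = 2), drawn for all but Fabp7. Sox10 and Tfap2a stand apart, with Lenti-AS 1 far above the other 3 samples, while the other panels show samples of both groups close together.

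The SRY-box factor Sox10 defines the SC lineage and is needed for SC survival and myelin gene expression. Sox10 was at 77.1 and 72.6 CPM in Lenti-GFP and at 163 and 61.2 CPM in Lenti-AS 1 and Lenti-AS 2. One Lenti-AS sample was thus the highest of the 4 and the other the lowest, and the groups overlapped. The mean was 74.8 ± 3.16 CPM (SD, n = 2) for Lenti-GFP against 112 ± 71.8 CPM (SD, n = 2) for Lenti-AS. This gave a log2 fold change of 0.58, with a standard error of 0.41, a 95% interval from -0.42 to 1.58 and an adjusted p of 0.440. As a fold change, the interval ran from 0.749 to 2.99. The difference between the Lenti-AS samples was 2.66-fold, which ranked 60 among the differences of the 12446 genes on the log2(CPM + 0.5) scale. Between the Lenti-GFP samples Sox10 differed 1.06-fold.

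The sign of the Sox10 difference depended on which Lenti-AS sample was used. Without Lenti-AS 1 the log2 fold change was -0.29 (standard error 0.07; edgeR adjusted p = 0.00221). Without Lenti-AS 2 it was 1.12 (standard error 0.06, edgeR adjusted p = 6.59e-16). With 1 sample left in the group, these fits take the spread from the Lenti-GFP samples, which for Sox10 lay close together. Sox10 had 14269 counts in Lenti-AS 1 and 4604 in Lenti-AS 2, with counting errors of 0.837% and 1.47%, far below the difference between these samples. The genes next to Sox10 in the RefSeq order of the GRCr8 assembly did not share its profile. Polr2f, which encodes an RNA polymerase subunit, was at 82.9 and 89.2 CPM in Lenti-GFP and 80.4 and 80.0 CPM in Lenti-AS, and Pick1, which encodes a PDZ-domain protein, was at 23.7 and 21.3 CPM in Lenti-GFP and 19.9 and 21.3 CPM in Lenti-AS.

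Tfap2a, which encodes the AP-2α factor of neural crest and SC precursors, was also highest in Lenti-AS 1, at a far lower count. It was at 2.61 CPM in both Lenti-GFP samples, at 5.53 CPM in Lenti-AS 1 and at 2.66 CPM in Lenti-AS 2. Lenti-AS 2 exceeded the higher Lenti-GFP sample by only 0.0466 CPM and held 200 counts, for which the counting error is 7.07%, so no difference from Lenti-GFP was detectable in that sample. Its log2 fold change was 0.65 (standard error 0.34, 95% interval -0.18 to 1.49, adjusted p = 0.318). It was 0.03 without Lenti-AS 1 (adjusted p = 0.948) and 1.08 without Lenti-AS 2 (edgeR adjusted p = 1.83e-05). The difference between the Lenti-AS samples was 2.08-fold, and 1.57% of all genes tested differed more.

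Sox10 and Tfap2a were the 2 genes of the 9 tested that lay in Lenti-AS 1 more than 2-fold above each of the other 3 samples, a pattern that was looked for after their values had been seen. It was found in 124 genes, or 0.996% of all genes tested, while 40 genes had it for Lenti-AS 2, 5 for Lenti-GFP 1 and 9 for Lenti-GFP 2. The genes whose values over the 4 samples lay nearest to those of Sox10 were Synpo, Mtss1l and Tnrc18, with root mean square distances of 0.0256, 0.0330 and 0.0514 on the centred log2(CPM + 0.5) scale. Synpo, which encodes an actin-associated protein, was at 9.85 and 9.35 CPM in Lenti-GFP, 22.1 CPM in Lenti-AS 1 and 7.65 CPM in Lenti-AS 2. For Tfap2a the nearest genes were Ciz1, Phf2 and Dlg4, at distances of 0.0269, 0.0300 and 0.0315. These neighbours were listed for Sox10 and Tfap2a because of their values.

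**Figure D2:**
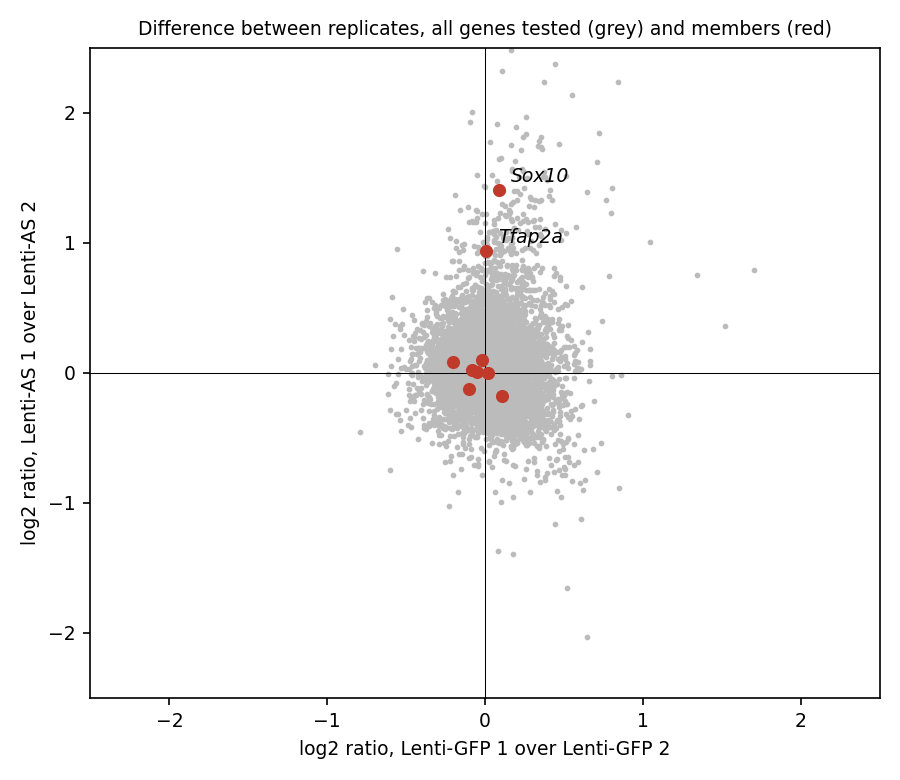
Log2 ratio of Lenti-GFP 1 to Lenti-GFP 2 (horizontal) and of Lenti-AS 1 to Lenti-AS 2 (vertical), from CPM + 0.5, for all 12446 genes tested (grey) and the 9 members tested (red), with 11 genes outside the range shown. Sox10 and Tfap2a lie high on the vertical axis and near 0 on the horizontal one, and the other 7 members lie closer to 0 on the vertical axis.

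Sox2, the SRY-box factor of immature SCs, varied least between samples among the 4 transcription factors. Lenti-GFP samples held 321 and 333 CPM, and Lenti-AS samples held 357 and 355 CPM. Both Lenti-AS samples lay above both Lenti-GFP samples, by 22.3 CPM between the nearest, and they differed from each other by 1.00-fold. The log2 fold change was 0.12 (standard error 0.05, adjusted p = 0.238), with a 95% interval of the fold change from 0.998 to 1.19, which leaves out a change of the size needed for a call. In RefSeq an uncharacterised locus overlaps Sox2, and the strand setting of the counting is not given in the sources used here, so reads of that locus could not be separated from those of Sox2.

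Pax3, the paired-box factor of neural crest and early SCs, was detected at a low level, with 122 to 165 counts per sample. Its values were 1.45 and 1.74 CPM in Lenti-GFP and 1.75 and 1.62 CPM in Lenti-AS. The groups overlapped, and the Lenti-GFP samples differed by more than the group means did. With a log2 fold change of 0.08 (standard error 0.21, 95% interval -0.44 to 0.60, adjusted p = 0.851), Pax3 did not pass, and the sign turned without Lenti-GFP 1 (-0.04). Counting errors were up to 9.05% per sample. The interval also takes in the spread between replicates, and a change that lies within it was not detectable with n = 2 per group.

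S100b, the calcium-binding protein used most often to mark SCs, took between 0.201% and 0.237% of all counts of a sample. Lenti-GFP samples held 2027 and 2052 CPM, and Lenti-AS samples held 2357 and 2206 CPM. Both Lenti-AS samples were higher, and the nearest samples of the groups were 153 CPM apart. Its log2 fold change was 0.16 (standard error 0.06, 95% interval 0.02 to 0.30, adjusted p = 0.191), or 11.9% above Lenti-GFP. An exact permutation test gave p = 0.333 (two-sided), the smallest that 2 samples against 2 allow, for S100b as for each of the 6 genes whose groups did not overlap. Dip2a, which overlaps S100b in RefSeq, was at 74.5 and 67.1 CPM in Lenti-GFP and 76.2 and 91.5 CPM in Lenti-AS, and its highest sample was Lenti-AS 2, whereas that of S100b was Lenti-AS 1.

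Gfap, the intermediate filament of astrocytes that is also made by non-myelinating and injured SCs, was at 84.5 and 78.3 CPM in Lenti-GFP and at 81.8 and 92.7 CPM in Lenti-AS. The groups overlapped, since Lenti-AS 1 lay between the Lenti-GFP samples. Gfap had a log2 fold change of 0.10 (standard error 0.08, 95% interval -0.11 to 0.31, adjusted p = 0.524). It was 0.01 without Lenti-AS 2 and 0.19 without Lenti-AS 1, where the adjusted p was 0.0410.

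Fabp7, the brain-type fatty acid binding protein of radial glia and SC precursors, was listed at 0 counts in 3 samples and at 2 counts in Lenti-GFP 2. A count of 0 allows up to 3 counts, or 0.0316 to 0.0399 CPM in these libraries, for counting error only. No fold change was formed, since both groups were under that limit.

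The neural cell adhesion molecule Ncam1, which immature and non-myelinating SCs carry on their surface, had the smallest p of the 9 genes tested. Lenti-GFP samples held 652 and 700 CPM, and Lenti-AS samples held 763 and 833 CPM. The groups did not overlap and lay 63.1 CPM apart at the nearest, beside a 1.07-fold difference within Lenti-GFP and a 1.09-fold difference within Lenti-AS. The mean was 676 ± 34.5 CPM (SD, n = 2) for Lenti-GFP against 798 ± 49.1 CPM (SD, n = 2) for Lenti-AS. Its log2 fold change was 0.24 (standard error 0.07, 95% interval 0.07 to 0.41), or 18.1% above Lenti-GFP, with an adjusted p of 0.129, so Ncam1 did not pass. DESeq2, the tool used in the study, put its adjusted p at 0.0243 with the same log2 fold change of 0.24, under the fold limit of 1.3.

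The genes whose profile over the 4 samples was nearest to that of Ncam1 were Itga1, Dnmt1 and Mcm2, at root mean square distances of 0.0116, 0.0140 and 0.0142 on the centred log2(CPM + 0.5) scale. Mcm2, a subunit of the replicative helicase, was at 87.1 and 92.3 CPM in Lenti-GFP and at 102 and 109 CPM in Lenti-AS. Itga1, the α1 subunit of a collagen and laminin receptor, was at 8.19 and 9.04 CPM in Lenti-GFP and at 9.72 and 10.7 CPM in Lenti-AS.

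L1cam, the adhesion molecule through which non-myelinating SCs hold axons, was the most even of the 9 genes tested. It was at 66.2 and 65.5 CPM in Lenti-GFP and at 67.4 and 67.5 CPM in Lenti-AS. The groups were apart by 1.25 CPM, and the interval of the fold change ran from 0.920 to 1.14 (log2 fold change 0.04, standard error 0.06, adjusted p = 0.777). Cdh2, which encodes N-cadherin, the main cadherin of junctions between immature SCs, was at 199 and 210 CPM in Lenti-GFP and at 218 and 215 CPM in Lenti-AS. The groups were apart by 4.37 CPM, less than the difference between the Lenti-GFP samples, and the log2 fold change was 0.08 (standard error 0.05, 95% interval of the fold change 0.962 to 1.16, adjusted p = 0.437). For L1cam, Cdh2, Sox2, S100b and Gfap the upper bound of the fold change stayed below 1.3, while for Ncam1 it was 1.33.

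**Figure D3:**
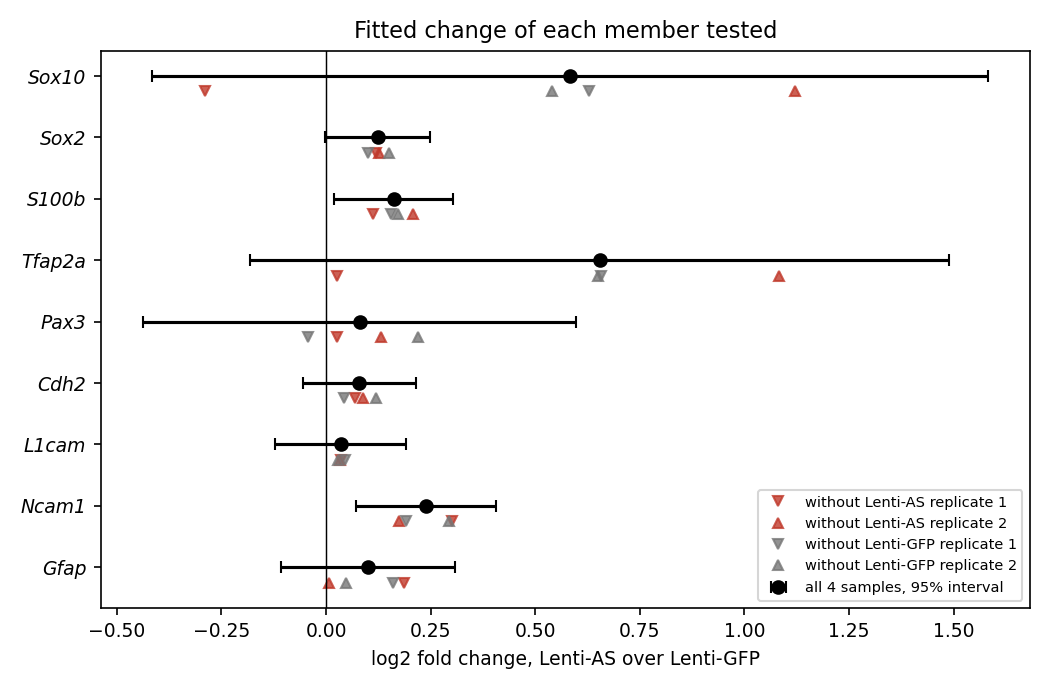
Log2 fold change of Lenti-AS over Lenti-GFP for the 9 genes tested (horizontal axis), with the 95% interval of the fit to all 4 samples (black) and the values of the fits that leave out 1 Lenti-AS (red) or 1 Lenti-GFP (grey) sample. The intervals of Ncam1 and S100b lie above 0, and leaving out Lenti-AS 1 or Lenti-AS 2 moves Sox10 to -0.29 or 1.12.

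The relatives of these genes came from a list of 42 paralogs, of which 30 could be tested. Of these, 1 was called higher and 2 lower, beside 1.31% and 0.667% of all genes tested. The median log2 fold change of the paralogs was -0.05. All 3 called paralogs are adhesion genes. Cdh1, which encodes E-cadherin, found in junctions of mature myelinating SCs, rose from 19.1 and 19.0 CPM in Lenti-GFP to 26.5 and 29.9 CPM in Lenti-AS (log2 fold change 0.57, edgeR adjusted p = 0.0389). Cdh11, a mesenchymal cadherin, fell from 78.9 and 80.1 CPM to 57.1 and 57.1 CPM (log2 fold change -0.48, adjusted p = 0.0316). Ncam2, the paralog of Ncam1, fell from 10.6 and 10.2 CPM to 6.57 and 6.33 CPM (log2 fold change -0.68, adjusted p = 0.0450), while the fitted value of Ncam1 was above 0. The groups did not overlap in these 3 genes. Of the other paralogs, the intermediate filament gene Des had a log2 fold change of -0.93 (adjusted p = 0.138) and the calcium-binding protein gene S100a16 one of -0.87 (adjusted p = 0.111), neither of which passed. Both were at low levels, with Des at 0.505 to 1.19 CPM and S100a16 at 1.02 to 2.17 CPM. Of the 30 paralogs tested, 14 were fitted higher, where 51.3% of all genes tested were.

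Among 20 listed partners of N-cadherin, L1 and NCAM, 16 were tested, with a median log2 fold change of -0.01. Of the 16, 0 were called higher and 1 lower, beside 1.31% and 0.667% of all genes tested. Nrp1, which encodes neuropilin 1, a semaphorin co-receptor that binds L1, fell from 35.9 and 34.8 CPM to 22.6 and 20.5 CPM (log2 fold change -0.71, adjusted p = 0.0221). The polysialyltransferase genes St8sia2 and St8sia4, whose products modify NCAM, had too few counts to be tested.

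**Figure D4:**
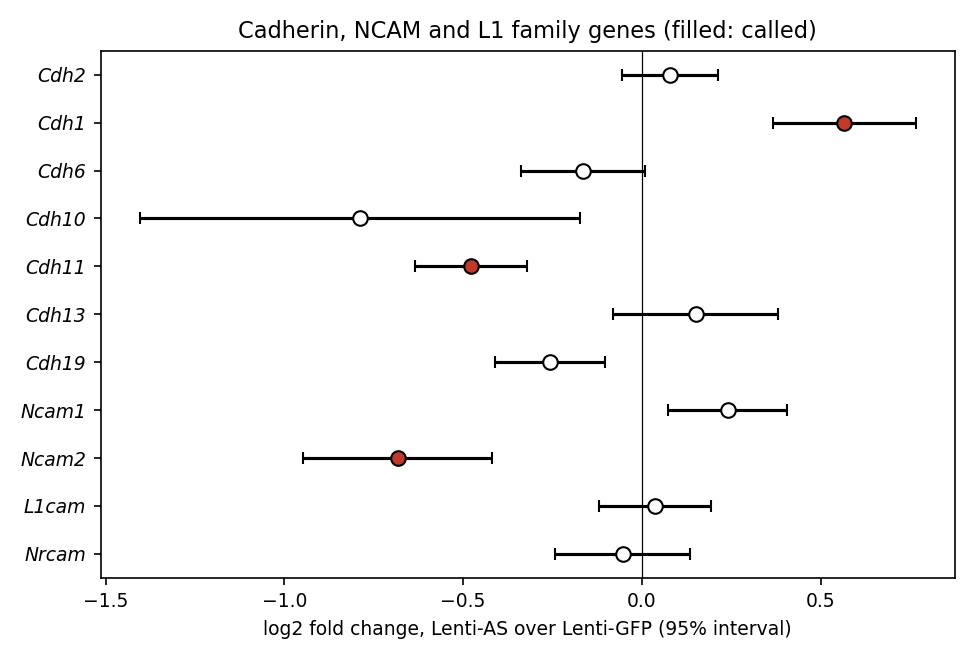
Log2 fold change of Lenti-AS over Lenti-GFP with its 95% interval (horizontal axis) for 11 cadherin, NCAM and L1 family genes that were tested and reached 1 CPM in a sample, filled where called. Cdh1 lies above 0 and Cdh11 and Ncam2 below, while Cdh2, Ncam1 and L1cam were not called.

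Known SOX10 targets are described gene by gene, with no count or median, because genes were left out of that list with their values known. Gjb1, which encodes the gap junction protein connexin 32 of myelinating SCs, rose from 20.4 and 19.1 CPM to 32.4 and 31.1 CPM (log2 fold change 0.68, adjusted p = 0.0218). Mbp, a component of compact myelin, rose from 29.6 and 32.1 CPM to 41.9 and 43.6 CPM (log2 fold change 0.47, adjusted p = 0.0428). Pou3f1, the POU factor of promyelinating SCs, rose from 69.2 and 65.6 CPM to 101 and 89.2 CPM (log2 fold change 0.50, adjusted p = 0.0481). In these genes the ratios of Lenti-AS 1 to Lenti-AS 2 were 1.04, 0.961 and 1.13, and in Sox10 it was 2.66. Gjb1, Mbp and Pou3f1 were named because they were called, and a call favours genes whose replicates lie close together. Their ratios therefore cannot show whether targets follow Sox10. These values do not speak for targets that are not given here. Mag, a myelin adhesion protein, was at 41.4 and 40.0 CPM in Lenti-AS and 52.2 and 51.8 CPM in Lenti-GFP (log2 fold change -0.35, adjusted p = 0.0594). Mag was named after its values had been seen. Mitf, another listed target, went the other way, from 12.8 and 13.8 CPM in Lenti-GFP to 17.9 and 18.8 CPM in Lenti-AS (log2 fold change 0.46, adjusted p = 0.0594).

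**Figure D5:**
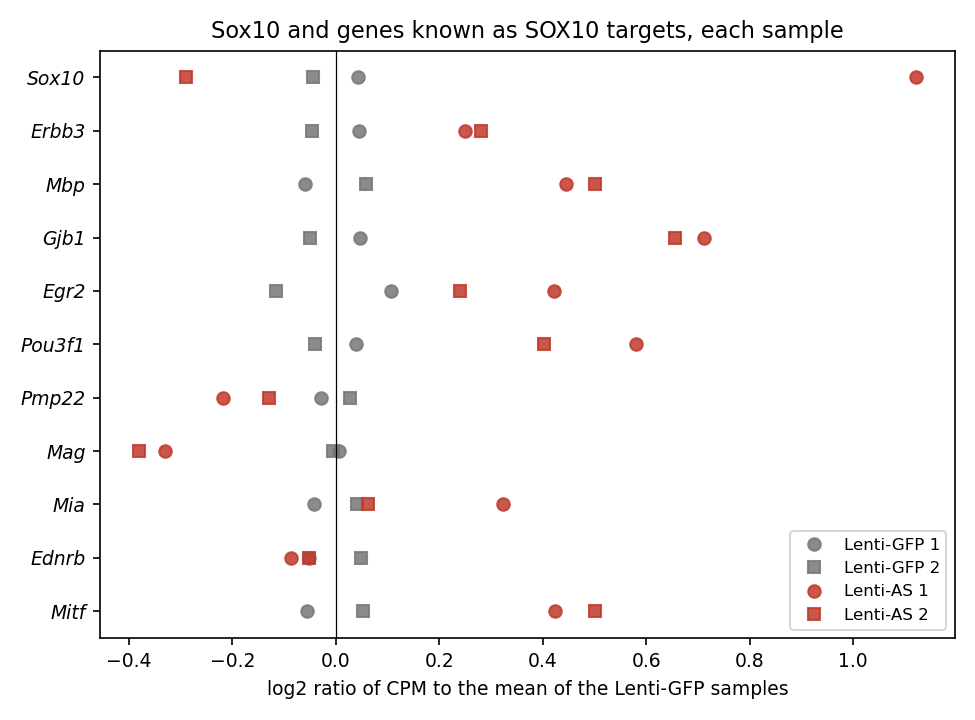
Log2 ratio of the CPM in each sample to the mean of the Lenti-GFP samples (horizontal axis) for Sox10 and the 10 listed SOX10 targets tested, with Lenti-GFP in grey, Lenti-AS in red, replicate 1 as circles and replicate 2 as squares. The Lenti-AS samples lie 2.66-fold apart for Sox10, and the targets shown are a part of the known ones, trimmed with their values known.

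Of 23 listed regulators of the neural crest and SC precursors, 19 were tested and 0 were called in either direction, beside 1.98% of all genes tested. Their median log2 fold change was 0.13, and those with the smallest p were Erbb3, Cdh19 and Ets1. Erbb3, the heregulin receptor of SCs, was at 477 and 448 CPM in Lenti-GFP and at 549.9 and 561 CPM in Lenti-AS (log2 fold change 0.26, adjusted p = 0.0788). Cdh19, a cadherin of SC precursors, was at 315 and 329.9 CPM and at 281 and 259 CPM (log2 fold change -0.26, adjusted p = 0.102), and Ets1, a crest transcription factor, had a log2 fold change of -0.29 (adjusted p = 0.110). The nearest relatives of Sox10, Sox8 and Sox9, were also highest in Lenti-AS 1, as were 28.8% of all genes tested. Both were lowest in Lenti-AS 2, and the share of all genes with both traits was not computed. In Lenti-AS 1 and Lenti-AS 2, Sox8 was at 17.6 and 10.9 CPM and Sox9 at 1.80 and 0.971 CPM. Sox9 held only 73 to 158 counts per sample. Tfap2b, the paralog of Tfap2a, was at 1.59 CPM in Lenti-AS 1 and at 0.696 to 0.889 CPM in the other samples. Tfap2c, another AP-2 paralog, was highest in Lenti-AS 2, with 13.7 and 12.3 CPM in Lenti-GFP and 15.0 and 16.2 CPM in Lenti-AS. Of 17 listed genes of the immature and repair states, all tested, 1 was called, beside 1.98% of all genes tested, and the median was 0.12. The called gene was Pou3f1, which stands above among the SOX10 targets. Gap43, a growth-associated protein often used to mark this state, did not exceed 0.264 CPM in any sample. It held 21 and 25 counts in Lenti-GFP and 2 and 7 in Lenti-AS. Its log2 fold change was the lowest of that list at -2.10 (adjusted p = 0.146), and at these low counts it was not called. Of the 17 genes of the list, 10 were fitted higher, where 51.3% of all genes tested were.

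Markers of other cell types were given beside these values as measured. Of 11 fibroblast markers in the table, Dcn, Lum, Thy1, Fap and Tcf21 did not exceed 0.0633 CPM in any sample. Pdgfra and Mfap5 were detected in every sample, at 3.08 to 4.07 CPM and at 3.19 to 4.22 CPM. The collagen gene Col1a1 was at 840 and 721 CPM in Lenti-GFP, 2131 CPM in Lenti-AS 1 and 290.0 CPM in Lenti-AS 2, the order also seen for Sox10. Col1a2 had that order too, with 155 and 133 CPM in Lenti-GFP and 339.6 and 120 CPM in Lenti-AS. Col3a1, the collagen gene with the highest CPM, was instead lowest in Lenti-AS 1, with 3260.3 and 2955 CPM in Lenti-GFP and 2198 and 2400 CPM in Lenti-AS (log2 fold change -0.43, adjusted p = 0.0520). The summed level of the fibroblast list, carried by Col1a1, Col1a2 and Col3a1, was 3816 to 4262 CPM in Lenti-GFP and 2817 to 4677 CPM in Lenti-AS. Of its 5 markers tested, 0 were called, beside 1.98% of all genes tested. The part of this list in the Sox10 values was not tested. The macrophage list summed to 3.58 to 3.78 CPM in Lenti-GFP and 4.32 to 4.58 CPM in Lenti-AS. The endothelial and mural list, carried mostly by Tek and Myh11, summed to 32.8 to 33.4 CPM and 27.4 to 28.9 CPM. Of the 3 macrophage and the 7 endothelial and mural markers tested, 0 were called, beside 1.98% of all genes tested. The perineurial list, carried by Tjp1 and Itgb4, summed to 369 to 376 CPM and 413 to 433 CPM, with 0 of 5 markers tested called. With so few markers tested, 0 called does not set these lists apart from all genes tested. Of 10 neuron markers, 6 were tested and 1 was called lower, beside 0.667% of all genes tested. This was Nefl, a neurofilament, which went from 142 and 152 CPM in Lenti-GFP to 106 and 108 CPM in Lenti-AS (log2 fold change -0.46, adjusted p = 0.0303). Nefm and Tubb3 were not called, with log2 fold changes of -0.33 (adjusted p = 0.0594) and -0.16 (adjusted p = 0.256). Of the 6 neuron markers tested, 0 were fitted higher, where 51.3% of all genes tested were. Snap25, Syt1 and Stmn2 did not exceed 0.0964 CPM. Of 6 melanocyte markers in the table, 3 were tested and 1 was called higher, beside 1.31% of all genes tested. This was Tyrp1, an enzyme of pigment synthesis, which went from 1069 and 1061 CPM to 1473 and 1337 CPM (log2 fold change 0.40, adjusted p = 0.0460). Mitf and Kit were not called, with log2 fold changes of 0.46 (adjusted p = 0.0594) and 0.35 (adjusted p = 0.182). All 3 melanocyte markers tested were thus fitted higher, as were 51.3% of all genes tested, while Tyr, Mlana and Slc45a2 were near 0.

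None of the 9 called list genes passed without Lenti-GFP 1 (edgeR adjusted p from 0.211 to 0.400) or without Lenti-GFP 2 (0.276 to 0.515). These fits left 0 genes called higher and 1 lower over the whole table, so the loss was general. None of the 9 passed with a replicate block either (edgeR adjusted p from 0.0680 to 0.104), while all 9 passed by DESeq2. Without Lenti-AS 1 the log2 fold change of Tyrp1 was 0.33, which is below the fold limit of 1.3 and so no call.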

How the data were processed

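RNA-seq was performed on 2 Lenti-GFP and 2 Lenti-AS samples of rat SCs with 50 bp paired-end reads. The authors deposited counts per gene without normalization. The study's methods name hisat2, rn6 and featureCounts on RefSeq exons, while the submitters' processing notes name GSNAP, featureCounts, rn6 and Rnor_6.0, so the aligner is uncertain. Versions, the strand setting and the treatment of reads with several matches are not given in the sources used here. Columns were mapped to samples by their titles. One row that repeats the header was dropped, and no row lacked a gene name.

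Counts were analysed with edgeR 4.0.16 in R 4.3.3 on the genes that reached 10 counts in 2 or more samples (TMM, glmQLFit, glmQLFTest, Benjamini-Hochberg over all 12446 genes tested), without a replicate term. The biological coefficient of variation was 12.1%. Standard errors were computed from the F statistic, and 95% intervals from its degrees of freedom. Replicates differed by more than sampling noise (chi-square per gene 32.7 in Lenti-GFP and 105 in Lenti-AS, where 1 is expected for repeated sampling). Total counts of 74024323 or more make counting error small for all but Pax3, Tfap2a and Fabp7, and intervals and floors from counts cover counting error only. Alternatives were DESeq2 1.42.0, limma-voom (limma 3.58.1), the likelihood ratio test, the newer quasi-likelihood fit, other normalizations, filters and cut-offs, a replicate block and leaving out each sample.

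The members and gene lists were chosen with earlier results of these data known. All 10 members are named, with the called genes of each list or, where none was called, up to 3 with the smallest p, and the 3 genes nearest in profile to the member with the smallest p. Mag, Mitf, Kit, Nefm, Tubb3, Pdgfra, Mfap5, Sox8, Sox9, Tfap2b, Tfap2c, Gap43, Des, S100a16, St8sia2, St8sia4, Col1a1, Col1a2 and Dip2a were named after their values had been seen. The same holds for the genes next to Sox10 and the genes nearest to Sox10 and Tfap2a. Genes of the SOX10 target and SC marker lists that are not reported here were left out of the list counts and of the plot, after their values had been seen. RefSeq names of the GRCr8 assembly were used for neighbours and overlaps only.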

Additional observations from a re-analysis of the deposited data

How the results depend on the processing

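No member was called under any alternative except the fit without Lenti-AS 2, which called 2 higher, Sox10 and Tfap2a (range 0 to 2 higher, 0 lower). Over the fits that leave out 1 sample, in which a lone sample is assumed to vary like the other group, the log2 fold change ranged from -0.29 to 1.12 for Sox10, from 0.0273 to 1.08 for Tfap2a, from -0.0441 to 0.22 for Pax3, from 0.11 to 0.21 for S100b, from 0.18 to 0.30 for Ncam1 and from 0.0074 to 0.19 for Gfap. The adjusted p was under 0.05, with a fold change below 1.3 and so no call, for Sox10 without Lenti-AS 1, for Ncam1 without either Lenti-AS sample and by DESeq2 (log2 fold change 0.24, adjusted p = 0.0243), for S100b without Lenti-AS 2 and for Gfap without Lenti-AS 1. For Sox2, Cdh2 and L1cam no alternative changed the direction or brought the adjusted p under 0.05. Samples that share a replicate number showed no joint deviation (correlation over genes -0.0123), and the labels give no shared culture or day. With a replicate block the log2 fold change of Ncam1 was 0.24 (adjusted p = 0.172) and that of Sox10 0.42, and no member was called. Over all genes the block left 3 called higher and 14 lower, against 163 and 83, and none of the 9 called list genes passed (adjusted p from 0.0680 to 0.104). DESeq2 called 488 and 139, the likelihood ratio test 374 and 147, and the fits that leave out 1 sample between 0 and 1260 higher and between 1 and 278 lower. The cause was not tested. Low counts limit Pax3 and Tfap2a, and Fabp7 could not be tested.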
